A study of Mus musculus with 10 samples.

Results

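Thyroid hormone activation, transport and reception in brown fat are covered here by 4 genes: Dio2, which makes the active hormone, Slc16a10, which carries it across the cell membrane, and Thra and Thrb, which encode its nuclear receptors. They were chosen by name and are 4 of the 15075 genes measured. Polyadenylated RNA was sequenced from interscapular brown adipose tissue (iBAT) of 5 Control and 5 AdCKO mice, with 1 library per mouse. All mice were C57BL/6, 20 weeks old and housed at room temperature. AdCKO mice carry Adipoq-Cre and a Crls1 allele with loxP sites around exon 4 (Crls1 f/f), and Crls1 encodes cardiolipin synthase, an enzyme of the inner mitochondrial membrane. Control mice have the same floxed allele and no Cre, although they are labelled wild-type. The Adipoq promoter drives Cre in adipocytes, so the other cells of the tissue keep the gene. The question was what loss of cardiolipin synthesis in fat cells does to the transcripts of this pathway.

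The thyroid releases mostly thyroxine, a prohormone that binds the nuclear receptors weakly. Type 2 deiodinase, the product of Dio2, removes an outer-ring iodine to give triiodothyronine, the form that binds them well. Brown fat is known for strong induction of Dio2 by noradrenaline through cyclic AMP, and for the need of triiodothyronine in full heat production by Ucp1. The hormone enters and leaves cells through membrane transporters, among them MCT10 (Slc16a10). The receptors pair with RXR on DNA, hold corepressors without hormone and recruit coactivators with it.

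Values are DESeq2-normalized reads per kb of counted exon, a scale per length on which genes can be set side by side. They are not counts, and the number of reads behind each is unknown. Each gene has 1 counted transcript, so levels set side by side also depend on which exons were counted. No value in the table is 0 and the smallest is 0.0532, and how low values were kept above 0 is not given in the sources used here, so the levels, spreads and folds of low genes may be compressed. Normalized reads summed to between 7615403 and 8171138 per Control library and to between 5419800 and 5843024 per AdCKO library. Crls1, the targeted gene, was at 1291, 927, 813, 1101 and 1170 in Control and at 193, 195, 249, 208 and 242 in AdCKO. The brown adipocyte markers summed to between 215349 and 253159 in Control and between 132773 and 158905 in AdCKO, where 7 of 8 were lower, so both groups carry the markers of the labelled tissue. Skeletal muscle markers summed to between 104 and 134 in Control, to 6424, 24296 and 9369 in AdCKO libraries 1, 2 and 4, and to between 138 and 151 in AdCKO libraries 3 and 5. The macrophage markers summed to between 428 and 1222 in Control and between 5845 and 7863 in AdCKO (8 of 8 higher), and the fibroblast markers to between 886 and 1168 and between 3571 and 5033 (5 of 5 higher). Endothelial markers summed to between 1328 and 1660 and between 1404 and 1891 (2 of 6 higher). In whole tissue, fewer cells of a type and less RNA per cell cannot be told apart.

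Dio2 (NM_010050) lies on the minus strand of mm9 at chr12:91962992-91976878. Its coding sequence has 267 codons with the stop, and 2 of its in-frame codons before the stop are TGA. A TGA codon normally ends translation, and the first of these is the one read as selenocysteine at the catalytic centre of the enzyme. They are shown because Dio2 mRNA can be translated in full only with the selenocysteine machinery, whose genes are described further on. Each TGA is in capitals with up to 5 codons on either side, read from the annotated transcript on mm9, minus strand.
Dio2 codon 130, chr12:91968248-91968280: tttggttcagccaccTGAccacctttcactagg
Dio2 codon 263, chr12:91967852-91967881: aatttcagcaagagaTGAattctagattag

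The promoter of Dio2 is shown because noradrenaline signals to it through cyclic AMP. The 250 bases before the RefSeq start (GRCm38.p6 table) matched mm9 once, at chr12:91977479-91977728 on the minus strand, and the RefSeq start lies 600 bases upstream of the first base counted for Dio2 in these data. The capitals mark the palindrome TGACGTCA, the full cyclic AMP response element (CRE), which begins at base -95 from that start.
Dio2 upstream sequence: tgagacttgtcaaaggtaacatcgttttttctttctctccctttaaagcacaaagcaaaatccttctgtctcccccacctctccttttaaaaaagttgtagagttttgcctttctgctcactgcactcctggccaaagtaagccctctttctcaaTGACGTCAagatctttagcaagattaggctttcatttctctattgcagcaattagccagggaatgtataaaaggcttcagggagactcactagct

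Of 32851 mouse promoters in that table, each 300 bases long, 588 (1.79%) hold TGACGTCA on either strand. The table has entries for 3 of the 4 genes, with 1 promoter each for Dio2 and Slc16a10 and 2 for Thrb. Thra has no entry and was not searched. Among these 4 promoters, TGACGTCA was found in that of Dio2 only. The hexamer AGGTCA, the core of the thyroid hormone response element, is held by 16.3% of all promoters on either strand. Among the 4 promoters it was found once, in the upstream Thrb promoter, at base -184. A direct repeat of AGGTCA with 4 bases between was in none of these 4 promoters and in 0.0152% of all promoters. A match here is a run of letters and not a measured binding site.

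Dio2 was at a higher mean level in AdCKO than in Control iBAT, but the groups overlapped and the difference missed the threshold. In Control libraries 1 to 5 it was at 294, 117, 82.8, 150 and 163 normalized reads per kb. In AdCKO libraries 1 to 5 it was at 278, 267, 328, 182 and 367. All 5 AdCKO values were above the Control mean, and 2 of them were above the highest Control value, which belonged to library 1. Mean levels were 162 ± 80.5 for Control and 285 ± 69.9 for AdCKO mice (SD, n = 5 each), a ratio of 1.76. Groups were compared with limma on log2(value + 1) over 11244 genes whose mean reached 10 in either group, at a Benjamini-Hochberg adjusted p of 0.01. On that scale, which understates changes of low genes, Dio2 differed by 0.90 (SE 0.29, 95% interval 0.28 to 1.53, adjusted p by limma = 0.0145). The exact two-sided permutation test gave p = 0.04, where the smallest p for 5 mice against 5 is 0.0079.

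Whether Dio2 was called turned on which library was left out and on the scaling. Without Control library 1 the Control mean of Dio2 was 128 ± 35.8 (SD, n = 4), the log2 fold change was 1.15 and the adjusted p by limma was 0.00102. Leaving out AdCKO library 4, the lowest of its group, gave a log2 fold change of 1.05 and an adjusted p by limma of 0.00728. Leaving out any other single library left Dio2 uncalled, at an adjusted p by limma of up to 0.0384. Without Control library 3, the lowest of its group, the log2 fold change was 0.70 (adjusted p by limma = 0.0318). Dio2 varied more between Control mice than 99.1% of the tested genes, with a coefficient of variation of 49.9% against a median of 10.6% over genes. In AdCKO its coefficient of variation was 24.6%, above that of 92.0% of the tested genes. AdCKO libraries 1, 2 and 4, which hold skeletal muscle transcripts, had the 3 lowest Dio2 values of their group. With those 3 libraries left out the log2 fold change was 1.23 (adjusted p by limma = 0.015).

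**Figure D1:**
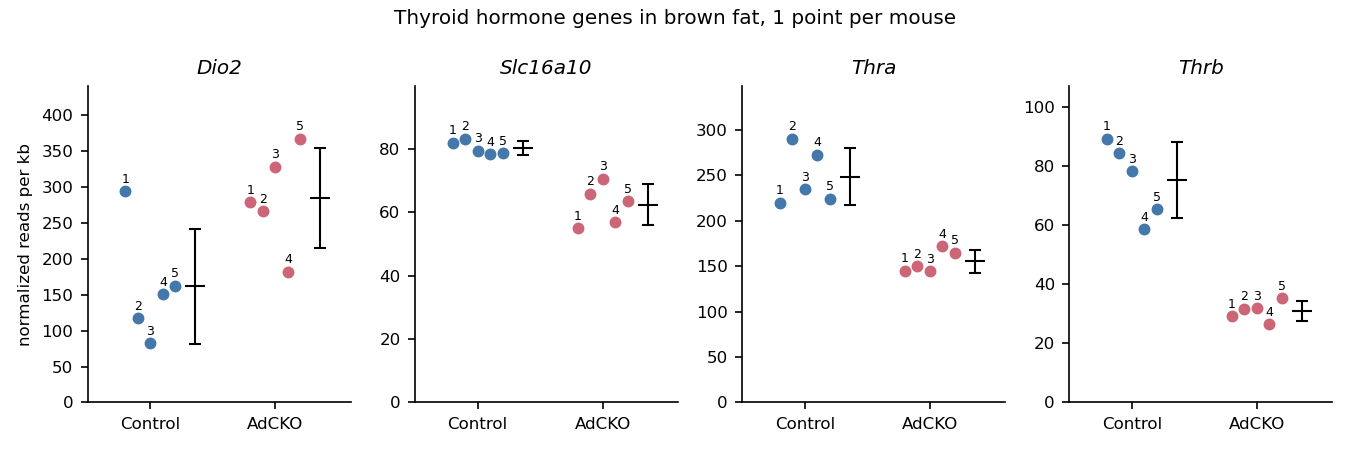
Normalized reads per kb (vertical axes, linear from 0) of Dio2, Slc16a10, Thra and Thrb in Control (blue) and AdCKO (red) iBAT. Each point is 1 mouse, numbered by replicate, and the black bars are the mean ± SD of 5 mice. Dio2 overlaps between the groups through Control library 1 at 294, whereas every AdCKO value of the other genes lies below every Control value.

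Slc16a10 encodes MCT10, a transporter of triiodothyronine and of aromatic amino acids. The gene (NM_001114332) lies on the minus strand of mm9 at chr10:39753341-39862060. Its values in Control were 81.9, 83.2, 79.4, 78.4 and 78.6, a narrower range than in almost any other gene: only 1.09% of the tested genes had a lower coefficient of variation than its 2.67%. In AdCKO they were 55.0, 65.9, 70.6, 56.8 and 63.5, all below the lowest Control value. The means were 80.3 ± 2.14 and 62.4 ± 6.44 (SD, n = 5 each), so that AdCKO was at -0.37 relative to Control on the log2 scale (SE 0.08; adjusted p by limma = 0.00103; exact permutation p = 0.0079). This call was tied to how libraries were scaled to each other: once all libraries were given the same total it was at 0.11 (adjusted p = 0.21). Without the 3 muscle-bearing AdCKO libraries it was -0.26 (adjusted p = 0.0462).

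Thra encodes thyroid hormone receptor alpha, the main receptor form in many tissues. The counted transcript (NM_178060, plus strand, chr11:98603187-98626425) has 9 exons and 410 codons, the form that binds hormone. The other annotated splice form, of 492 codons, encodes a protein that does not bind it, and shares 68.6% of the counted bases. Reads in the shared exons cannot be assigned to either form. Thra was at 220, 290, 235, 272 and 224 in Control and at 145, 150, 145, 172 and 165 in AdCKO, without overlap. The means were 248 ± 31.3 and 155 ± 12.3 (SD, n = 5 each), so that AdCKO held 62.5% of the Control level. On the log2 scale the difference was -0.67 (SE 0.09; adjusted p by limma = 3.77e-05; exact permutation p = 0.0079). Equal library totals brought it to -0.19 (adjusted p = 0.0496), which missed the threshold.

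Nr1d1, which encodes the circadian repressor REV-ERB alpha, lies on the opposite strand beyond the end of Thra. The long splice form of Thra overlaps its exons by 263 bases, while the counted Thra transcript ends 2820 bases short of it and shares no base with it. Nr1d1 was at 558, 706, 577, 781 and 520 in Control and at 484, 548, 537, 505 and 486 in AdCKO. Its log2 fold change was -0.28 (adjusted p by limma = 0.036), and the groups overlapped.

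Thrb encodes thyroid hormone receptor beta. The counted transcript (NM_001113417, plus strand, chr14:18493474-18870602) has 10 exons and 461 codons, and shares 92.1% of its bases with another annotated form of 475 codons that starts elsewhere. Thrb was at 89.4, 84.6, 78.4, 58.8 and 65.5 in Control and at 29.2, 31.7, 31.9, 26.6 and 35.4 in AdCKO. The highest AdCKO value was well below the lowest Control value. The means were 75.3 ± 12.9 and 31.0 ± 3.30 (SD, n = 5 each), which leaves 41.1% of the Control level. On the log2 scale AdCKO was at -1.25 relative to Control (SE 0.12; adjusted p by limma = 2.17e-06; exact permutation p = 0.0079). Under equal library totals it was -0.77 (adjusted p = 6.27e-05), and it stayed past the threshold in all 21 alternatives tried.

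At the threshold 3 of the 4 genes were thus lower, 0 were higher and Dio2 was not called; those 3 were also the genes whose groups did not overlap. Over all tested genes, 28.0% were called lower and 25.6% higher, and 26.4% lay wholly lower and 24.5% wholly higher in AdCKO. With more than 1 gene in 4 called in each direction, 3 of 4 is given as a description of these genes, with no test. The AdCKO totals of normalized reads were all below the Control totals, so the scaling matters. With the same total in every library, 60.6% of the tested genes were called higher and 9.77% lower, and among the 4 genes Dio2 was higher (log2 fold change 1.38, adjusted p by limma = 0.000725) and Thrb lower. Over all genes the median difference went from -0.01 to 0.46 under that scaling. Relative to this median, Dio2 was at 0.92, Slc16a10 at -0.35, Thra at -0.65 and Thrb at -1.23. Scaling to the adipocyte genes Adipoq, Plin1, Fabp4 and Pparg, an alternative chosen after seeing the data, gave 1.41 for Dio2, 0.14 for Slc16a10, -0.16 for Thra and -0.74 for Thrb, with a median of all genes of 0.49.

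**Figure D2:**
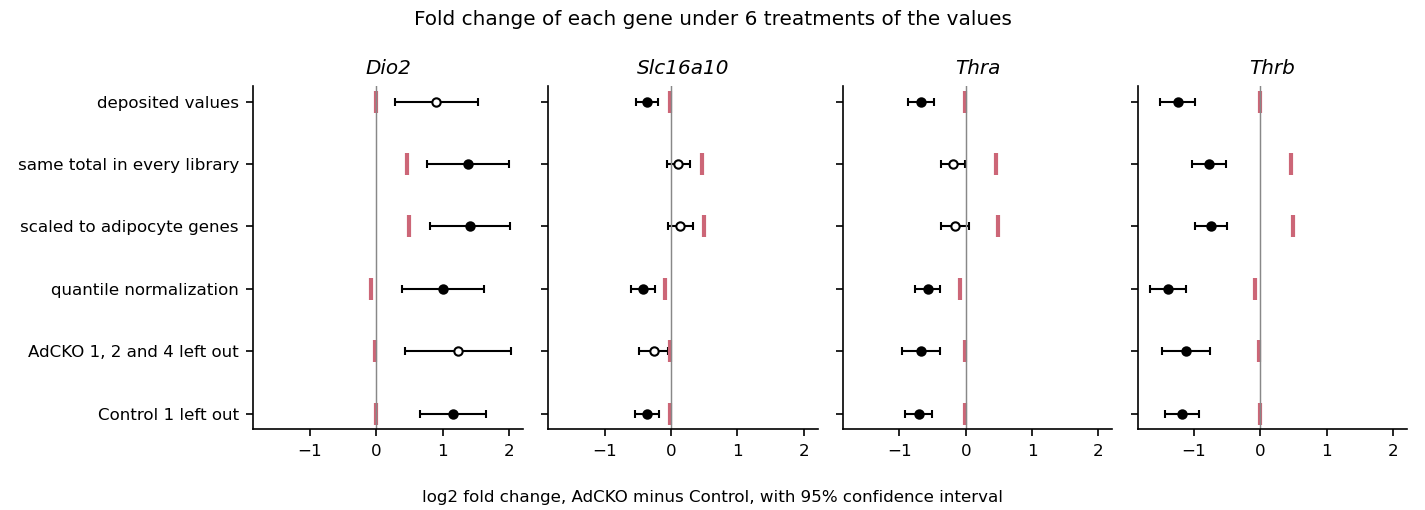
Log2 fold change, AdCKO minus Control, of the 4 genes (horizontal axes) with its 95% confidence interval under 6 treatments of the values (rows). Filled points are past the adjusted p threshold of 0.01 and open points are not; red ticks mark the median of all tested genes. Thrb is filled in every row, while Slc16a10 moves from -0.37 to 0.11 and 0.14 as the red tick moves right.

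Ratios between genes of the same library hardly depend on that scaling. The 6 ratios among the 4 genes were compared, as log2 ratios of value + 1 with exact permutation tests and Benjamini-Hochberg adjustment over the 6. The Dio2 over Thrb ratio moved most. Its log2 value was 1.71, 0.47, 0.08, 1.34 and 1.30 in Control and 3.21, 3.03, 3.32, 2.73 and 3.34 in AdCKO. The means were 0.98 ± 0.68 and 3.13 ± 0.25 (SD, n = 5 each; exact p = 0.0079, adjusted p = 0.024). There was thus 1.97 times as much Dio2 as Thrb per kb in Control and 8.74 times as much in AdCKO.

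The order of the levels changed with it. In Control the mean levels ran Thra, Dio2, Slc16a10, Thrb. In AdCKO they ran Dio2, Thra, Slc16a10, Thrb. Dio2 was above Thra in 1 of 5 Control libraries and in 5 of 5 AdCKO libraries, and the log2 ratio of Dio2 over Thra went from -0.74 ± 0.76 to 0.84 ± 0.44 (n = 5 each, exact p = 0.016, adjusted p = 0.024). Thrb and Slc16a10 were neighbours that did not separate in Control, where Slc16a10 was the higher in 3 of 5 libraries and the log2 ratio of Thrb over Slc16a10 was -0.11 ± 0.22. In AdCKO Slc16a10 was the higher in 5 of 5, at -0.99 ± 0.12 (exact p = 0.0079, adjusted p = 0.024). Among all 15075 genes ranked by mean level per kb, Dio2 stood at rank 2982 in Control and 1625 in AdCKO, Thra at 2028 and 2959, Slc16a10 at 5089 and 6087, and Thrb at 5284 and 8522.

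Thra was above Thrb in all 10 libraries, and the log2 ratio of Thra over Thrb was 1.29, 1.77, 1.57, 2.19 and 1.76 in Control and 2.28, 2.20, 2.14, 2.65 and 2.19 in AdCKO. The means were 1.72 ± 0.33 and 2.29 ± 0.20 (n = 5 each, exact p = 0.024, adjusted p = 0.029). The groups overlapped through Control library 4, and the means differed by 0.58. Without the muscle-bearing libraries the difference was 0.45 (adjusted exact p = 0.19), and within replicate numbers the adjusted exact p was 0.0625. These 2 tests say little on whether the shift holds. The smallest p is 0.048 for 5 libraries against 2, before adjustment. Within replicate numbers it is 0.062, so that test could not pass 0.05. The smallest shift was that of Thra over Slc16a10, by -0.30 (exact p = 0.048, adjusted p = 0.048).

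**Figure D3:**
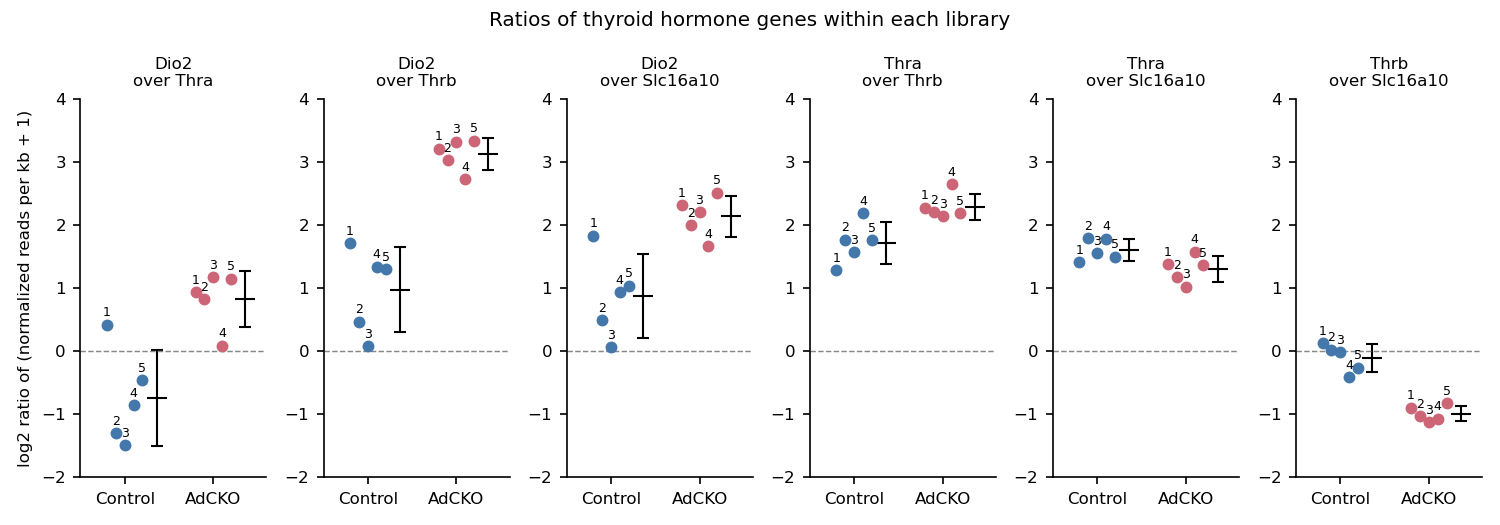
Log2 ratios of (normalized reads per kb + 1) between pairs of genes within each library (vertical axes) in Control (blue) and AdCKO (red), 1 numbered point per mouse, with mean ± SD of 5 mice as black bars and a dashed line at equal levels. Dio2 over Thrb rises from a mean of 0.98 to 3.13, and Dio2 over Thra crosses the line, from -0.74 to 0.84.

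Of the other deiodinases, Dio1, which also activates the hormone, and Dio3, which inactivates it, were not analysed here. Iyd, which recovers iodide from iodotyrosines, was under the filter with values between 0.618 and 0.791. The remaining pathway genes were taken in lists by role, 83 genes in all, of which 71 were analysed here and 70 passed the filter and were tested. Of these, 12 passed the threshold as higher and 32 as lower, and 26 did not pass, beside the 25.6% and 28.0% of all tested genes called higher and lower. The median difference was -0.26 beside -0.01 over all tested genes. Equal library totals gave 31 higher and 12 lower, where 60.6% and 9.77% of all tested genes were called; these 4 shares are the background for the lists that follow.

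**Figure D4:**
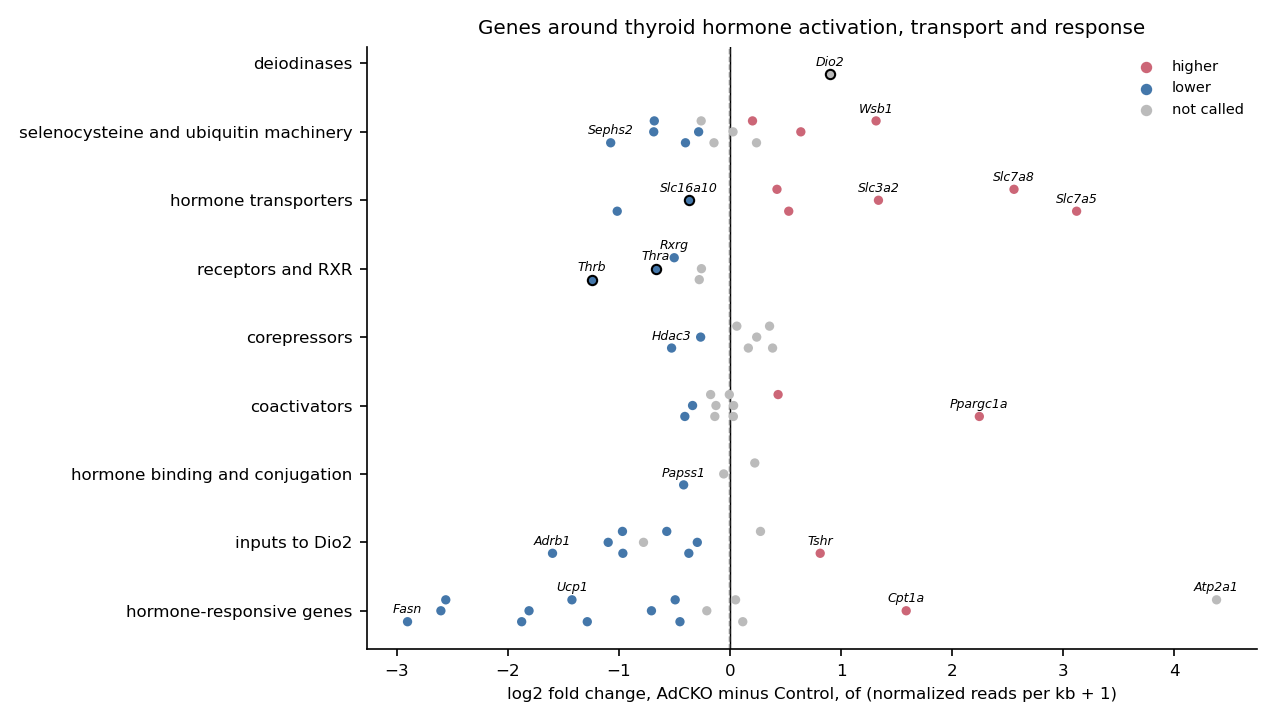
Log2 fold change, AdCKO minus Control, of the 70 tested genes of the lists (horizontal axis, on the scale of normalized reads per kb + 1), grouped by role in rows. Red points are higher and blue points lower at the adjusted p threshold of 0.01, grey points are not called, black rims mark the 4 genes, and the dashed line is the median of all genes at -0.01. Transporters lie on both sides, from Slco4a1 at -1.01 to Slc7a5 at 3.12, and most hormone-responsive genes lie on the left.

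The transporters moved in opposite directions. Of the 7 tested, 5 were higher and 2 lower (median 0.53), the lower ones being Slc16a10 and Slco4a1, beside 25.6% and 28.0% over all genes. Equal totals left 5 higher and 0 lower, beside 60.6% and 9.77%. Slc7a5 and Slc7a8 encode LAT1 and LAT2, the light chains of amino acid exchangers that also carry thyroid hormone, and Slc3a2 encodes the heavy chain they share. Slc7a5 was between 3.51 and 3.89 in Control and between 36.9 and 46.5 in AdCKO, higher by 3.12 on the log2 scale (adjusted p by limma = 4.38e-10). Slc7a8 was between 7.39 and 10.5 in Control and between 46.0 and 62.0 in AdCKO, higher by 2.56 (adjusted p by limma = 7.66e-09). The Control means of Slc7a5 and Slc7a8, 3.66 and 8.41, were under the filter of 10. Both were thus tested, and counted among the 5 higher, only through AdCKO, where they were high. Their low Control levels and spreads may be compressed. Slc3a2 rose from 215 ± 80.2 to 525 ± 105 (SD, n = 5 each; 1.34, adjusted p by limma = 0.000228). These 3 were also called higher under equal library totals, and without the muscle-bearing libraries. Macrophage and fibroblast markers were higher in the same libraries, and their part in these values was not tested. Slco2b1, an organic anion transporter, was higher by 0.42 (adjusted p by limma = 0.00024). Slco4a1, of the same family and able to take up thyroid hormone, was at -1.01 (adjusted p by limma = 0.00266); under the same total it was at -0.55 and without the muscle-bearing libraries at -0.58, and not called in either.

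Among the machinery that makes and removes the Dio2 protein, 3 of 12 genes were higher and 5 lower (25.6% and 28.0% over all genes), with a median of -0.20. Equal totals made that 6 higher and 1 lower (60.6% and 9.77% over all genes). The genes that build selenocysteine were among the lower ones. Sephs2, which makes the selenium donor, went from 1072 ± 122 to 513 ± 87.1 (SD, n = 5 each; log2 fold change -1.07, adjusted p by limma = 9.26e-06) and was also lower with the same total (-0.59). Pstk and Sepsecs, the enzymes that convert serine on its tRNA to selenocysteine, were at -0.68 and -0.69; with the same total they were at -0.20 and -0.22 and not called. Against these, Eefsec, the elongation factor that brings selenocysteine to the TGA codon, was higher by 0.64 (adjusted p by limma = 0.000292); without the muscle-bearing libraries it was at 0.55 and not called. Wsb1, the ubiquitin ligase adaptor that marks type 2 deiodinase for degradation, was at 31.4, 26.3, 29.9, 35.9 and 34.4 in Control and at 81.3, 79.8, 90.1, 76.9 and 71.3 in AdCKO. Its log2 fold change was 1.32 (adjusted p by limma = 2.04e-07), and it was higher in every library. Ube2j1, a ubiquitin-conjugating enzyme of the endoplasmic reticulum, was higher by 0.20 (adjusted p by limma = 0.00613). It was at 0.21 without the muscle-bearing libraries, where fewer libraries were tested, and not called there (adjusted p by limma = 0.0684).

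Of the 10 tested genes that signal to Dio2, 7 passed as lower and 1 as higher (28.0% and 25.6% over all genes), with a median of -0.67; under equal totals 3 were lower and 2 higher (9.77% and 60.6% over all genes). Receptors for noradrenaline were among the lower genes. Adrb3, the main noradrenaline receptor of mouse fat cells, went from 809 ± 178 to 373 ± 60.9 (SD, n = 5 each), which is -1.10 on the log2 scale (adjusted p by limma = 7.89e-05). Adrb1 was at -1.60 and adenylyl cyclase Adcy6, which makes cyclic AMP, at -0.96; the 3 genes were also lower with the same total, by log2 fold changes of -0.61, -1.12 and -0.48. Nr1h3, which encodes LXR alpha, a repressor of Dio2, was at -0.37, a sign that turned with the same total (0.11, not called). Tshr, the thyrotropin receptor, was the 1 gene higher, from 15.3 ± 4.70 to 27.2 ± 6.44 (SD, n = 5 each; 0.81, adjusted p by limma = 0.00411). Without the muscle-bearing libraries it was at 0.51 and not called.

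Rxrg, a partner of the receptors, was lower, at 123 ± 17.3 and 87.0 ± 15.3 (SD, n = 5 each; log2 fold change -0.50, adjusted p by limma = 0.00446), and went to -0.02 with the same total; without the muscle-bearing libraries it was at -0.27 and not called. Rxra was at -0.28 (adjusted p by limma = 0.0153), a sign that turned to 0.20 with the same total, and was not called in either. Without the muscle-bearing libraries Rxra was called lower, at -0.44 (adjusted p by limma = 0.0024). No RXR gene was higher, and Thra, Thrb and Rxrg were the 3 of 5 receptor genes called lower (28.0% over all genes), with a median of -0.50. Equal totals left 1 of the 5 lower, Thrb, and 0 higher, with a median of -0.02, beside 9.77% and 60.6% over all genes. With the muscle-bearing libraries left out, 3 of the 5 were lower, namely Thra, Thrb and Rxra, beside 2175 of all 11244 tested genes. Among 7 corepressor genes 2 were lower and 0 higher (median 0.17), beside 28.0% and 25.6% over all genes. These were Hdac3, the deacetylase of the corepressor complex, at -0.52 (adjusted p by limma = 7.66e-06), and the scaffold Ncor1 at -0.26; with the same total they were at -0.05 and 0.21 and not called, and 5 other corepressor genes were higher, beside 60.6% of all genes. Among 10 coactivator genes 2 were higher and 2 lower, with a median of -0.07, beside 25.6% and 28.0% over all genes. Ppargc1a, the cold-inducible coactivator of the thermogenic program, was at 135, 95.6, 83.9, 87.6 and 101 in Control and at 452, 327, 901, 247 and 725 in AdCKO (log2 fold change 2.24, adjusted p by limma = 3.7e-05). Prmt1, an arginine methyltransferase, was higher by 0.43. Kat2b and Ncoa2 were at -0.41 and -0.34, signs that turned with the same total (0.07 and 0.13, neither called). Under that scaling 8 coactivator genes were higher, as were 60.6% of all genes. Of 3 binding and conjugation genes, Papss1, which makes the sulfate donor, was lower at -0.42, a sign that also turned (0.06, not called). Without the muscle-bearing libraries, where fewer libraries were tested, Ncor1, Ncoa2 and Papss1 were not called. Their log2 fold changes there were -0.25, -0.33 and -0.42.

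Of 15 genes known to respond to thyroid hormone, 10 were lower, 1 was higher and 4 were not called, with a median of -0.71, beside 28.0% lower and 25.6% higher over all genes. Equal totals gave 7 lower and 2 higher, beside 9.77% and 60.6%. Among the 4 not called was Atp2a1 (log2 fold change 4.38, adjusted p by limma = 0.026). Atp2a1 was at 765, 3057 and 978 in the muscle-bearing AdCKO libraries 1, 2 and 4. In AdCKO libraries 3 and 5 it was at 5.47 and 5.54, and in Control between 5.99 and 8.51. The part of muscle in these values was not tested. Thrsp, a hormone-induced gene of fat synthesis, went from 44401 ± 10925 to 7475 ± 2454 (SD, n = 5 each; log2 fold change -2.60, adjusted p by limma = 1.28e-06). Acaca, which makes malonyl-CoA for fatty acid synthesis, was at -2.56, mitochondrial glycerol phosphate dehydrogenase Gpd2 at -1.87 and uncoupling protein Ucp3 at -1.81, and each was also lower with the same total. Cpt1a, the liver-type gate of fatty acid entry into mitochondria, rose by 1.59 (adjusted p by limma = 3.88e-07). Klf9 and Hr are direct receptor targets. Klf9 was at -0.45 (adjusted p by limma = 0.00248) with groups that overlapped, and at 0.03 with the same total. Hr was at 41.8 ± 15.1 and 43.7 ± 7.40 (SD, n = 5 each; 0.12, adjusted p by limma = 0.652); scaled to adipocyte genes it was called higher, at 0.62. Many of these genes have other regulators as well.

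Ucp1, the uncoupling protein of brown fat, is induced by noradrenaline as Dio2 is, and the pair went apart in their means. Ucp1 was at 40656, 32405, 24203, 46570 and 40726 in Control and at 12861, 12683, 18077, 7895 and 18828 in AdCKO. On the log2 scale it differed by -1.42 (SE 0.25; adjusted p by limma = 0.000274), and every AdCKO value was below every Control value. Within AdCKO the order of the libraries from high to low was 5, 3, 1, 2 and 4 for Dio2 and for Ucp1, and 3, 5, 1, 2 and 4 for Ppargc1a. The last 3 of these are the muscle-bearing libraries. The AdCKO order of Thrb was 5, 3, 2, 1 and 4. That of Thra was 4, 5, 2, 1 and 3, and that of Slc16a10 was 3, 2, 5, 4 and 1. In Control the order was 1, 5, 4, 2 and 3 for Dio2 and 4, 5, 1, 2 and 3 for Ucp1, with library 3 last in both.

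**Figure D5:**
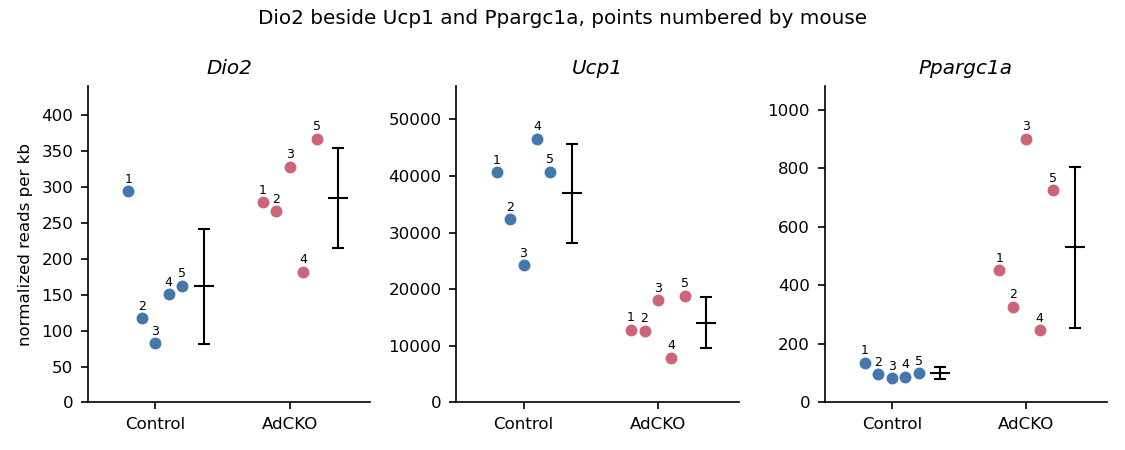
Normalized reads per kb (vertical axes, linear from 0) of Dio2, Ucp1 and Ppargc1a in Control (blue) and AdCKO (red) iBAT, 1 numbered point per mouse, with mean ± SD of 5 mice as black bars. Ucp1 is lower and Ppargc1a higher in every AdCKO mouse, and in each panel AdCKO libraries 3 and 5 are the highest and library 4 the lowest of their group.

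The genes with the profile nearest to each of the 4 were taken as the 3 with the smallest root-mean-square difference of log2 values over the 10 libraries, after subtracting each gene's Control mean. For Dio2 they were Gyk, a glycerol kinase (0.30), Nfil3, a basic leucine zipper repressor (0.32), and Slc38a2, an amino acid transporter (0.33). Nfil3 and Slc38a2 were called higher, at 0.85 and 1.01, and Gyk, at 0.73, was not (adjusted p by limma = 0.0374). For Slc16a10 the differences were much smaller, at 0.0523 for Wdr45, 0.0526 for Mllt4 and 0.0533 for Ube2a, all lower. For Thra they were 2700089E24Rik (0.0867), 0610009B22Rik (0.0939) and Npepl1 (0.0943). For Thrb they were the mitochondrial enzymes Adhfe1 (0.104) and Mut (0.13), the latter methylmalonyl-CoA mutase, and the complex I assembly factor Foxred1 (0.134). Adhfe1 went from 713 ± 134 to 294 ± 19.8 (SD, n = 5 each), a difference of -1.26 beside -1.25 for Thrb. This likeness is over 10 libraries of 2 groups, so it rests largely on the difference between the groups.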

How the data were processed

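The authors deposited a signal per gene: DESeq2-normalized reads per kb of counted exon, for 15075 genes with 1 RefSeq transcript each. The authors mapped reads to mm9 with STAR, made tag directories with HOMER and counted exon reads with iRNA-seq; whether counting used strand is not stated. The counted exons of Dio2 share 100 bases with the annotated gene Gm16738, and those of Slc16a10, Thra and Thrb share none with another gene. The authors' DESeq2 fold changes and adjusted p-values, and their lists of called genes, were not used. Groups came from the sample labels.

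Genes whose mean reached 10 in either group (11244) were compared on log2(value + 1) with limma 3.58.1 in R 4.3.3 (lmFit, eBayes with trend, two-sided, Benjamini-Hochberg, threshold 0.01), as a count test needs counts. Single genes and ratios used exact two-sided permutation tests of all 252 splits in Python 3.11.15, and the ratio threshold was 0.05. These tests compared means of untransformed values for single genes and means of log2 ratios for ratios. Both tests were tested on simulated data. Lists were described by counts and medians. Named were the 4 genes, 11 genes set by name, at most 4 called genes of each list with the smallest p, called genes against their list, and the nearest profiles. Iyd and Atp2a1 are described in addition. The 4 genes and the lists were chosen with earlier results of these data known. A further gene and a ratio with it are not reported here.

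Sequences came from the mm9 genome with its GENCODE vM1 annotation and from the RefSeq promoter table. Alternatives were pseudocounts of 0.1 and 10, other filters, the same total in every library, quantile normalization, limma without the trend or with a robust trend, an adjusted p of 0.05 for counts of list genes, the replicate number as a block and each library left out. Leaving out the 3 muscle-bearing AdCKO libraries and scaling to adipocyte genes were added after seeing the data. Figures were drawn with matplotlib. The reads behind each value are unknown, so precision is the spread between 5 mice.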

Additional observations from a re-analysis of the deposited data

Results flagged for a closer look

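In 114 groups of 5 values (51 named genes and 6 ratios, in Control and in AdCKO), 6 values lay apart from the rest of their group, with a gap to the nearest value above 0.71 of the group's range. Chance alone flags about 1 group in 20, so 6 flags in 114 groups are about as many as chance gives. None of the 4 genes was among them, but the log2 ratio of Thra over Thrb was, at 2.65 in AdCKO library 4 with the next value at 2.28. The others were Pstk at 112 normalized reads per kb in AdCKO library 5 (next 90.8), Eefsec at 19.4 in Control library 4 (next 26.3) and at 47.9 in AdCKO library 1 (next 39.9), Ube2j1 at 153 in AdCKO library 4 (next 163), and Ncoa2 at 58.8 in Control library 1 (next 50.1). AdCKO libraries 1 and 4 hold skeletal muscle transcripts, and the part of these in the values was not tested.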

How the results depend on the processing

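With the same total in every library, Dio2 was called higher (1.38), Thra was -0.19 and not called, Slc16a10 turned to 0.11, and list genes came to 31 higher and 12 lower in place of 12 and 32. Scaled to adipocyte genes, the values were 1.41, -0.16 and 0.14, with 34 higher and 12 lower. These moved the median of all genes from -0.01 to 0.46 and 0.49 and the share of calls that are higher from 47.7% to 86.1% and 87.5%; quantile normalization gave 41.3% and called Dio2 (1.00). At an adjusted p of 0.05, 19 list genes were higher. Without the 3 muscle-bearing AdCKO libraries Slc16a10 was at -0.26 and no longer called, 21 list genes were lower, and the log2 ratio of Thra over Thrb (0.45) missed 0.05. Fewer samples were tested there, and the exact test of 5 libraries against 2 cannot go below 0.048 before adjustment. Leaving out 1 library at a time, the log2 fold change ran from 0.70 to 1.15 for Dio2, which was called without Control library 1 or AdCKO library 4, from -0.41 to -0.32 for Slc16a10, from -0.71 to -0.61 for Thra and from -1.33 to -1.18 for Thrb. List genes ran from 10 to 13 higher and from 29 to 33 lower, and the Thra over Thrb ratio from 0.47 to 0.70, always past its threshold. With the replicate number as a block (replicate block), the adjusted p from limma was 0.0188 for Dio2, 0.00441 for Slc16a10, 0.000253 for Thra and 4.23e-05 for Thrb, which changed no call. Differences within replicate numbers were 0.58 for the Thra over Thrb ratio, at an adjusted exact p of 0.0625, where the sign-flip test of 5 pairs cannot go below 0.062. Same-numbered libraries shared only a number: the correlations of their deviations ran from -0.268 to 0.098, and 0 of 5 correlated best with their own number. Pseudocounts, filters and the trend changed no call of the 4 genes. The unknown depth and the lack of counts limit what can be said of low genes.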
